A study of Micropterus salmoides with 6 samples.

Results

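The proteasome is the protease complex of the cytosol and nucleus that breaks down proteins tagged with ubiquitin. Its 20S core is a barrel of stacked rings of alpha and beta subunits with the proteolytic sites inside, and its 19S cap binds ubiquitinated proteins, unfolds them with a ring of ATPases and feeds them into the core. Activators of the PA28 and PA200 kinds can bind the core in place of the cap, and dedicated chaperones put the rings together. In muscle the complex carries out much of the protein breakdown of fasting and atrophy.

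The genes described here are those of largemouth bass (Micropterus salmoides) whose symbols name proteasome subunits, activators, the inhibitor psmf1 or assembly factors. They were chosen by symbol alone, and 48 of the 27166 genes in the count table matched. One of them, psmb11a, whose mammalian counterpart belongs to the thymus, had 0 counts in all 6 libraries, which allows a level of up to 0.214 CPM (3 counts) in the smallest of them. The other 47 had 10 or more counts in at least 3 libraries and were tested among 20627 genes. They comprised 19 core, 17 cap, 4 activator, 1 inhibitor and 6 assembly genes. No gene carried the symbols pomp, psma7, psmb6, psmd4 or psmd5, and genes for these subunits and chaperones with names outside the choice are not analysed here.

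RNA came from the whole bodies of larvae after 12 days of feeding. SP_L larvae ate a diet with 0% phospholipid added and were picked because they were deformed. SP_H larvae ate the diet with 8% phospholipid and were picked as normal. There were 3 libraries of each kind, every one made from 30 pooled larvae from a tank. Deformed larvae on the 8% diet or normal larvae on the 0% diet were not sampled, so the effects of diet and of deformity cannot be told apart. The libraries held 14958887 to 16922264 counts. Differences are given as log2 fold changes, positive where SP_L was higher, and ± marks their edgeR standard error. Levels are CPM, which are counts relative to library size as scaled by the TMM method, with the SD over 3 libraries. Where levels of different genes are compared, they are the deposited FPKM, which also divide by gene length.

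Summed over the 47 genes, transcripts of the proteasome were close to the same level in both groups. All 47 genes together took a share of all counts that averaged 0.274% with an SD of 0.00399 over the 3 SP_H libraries and 0.269% with an SD of 0.0186 over the 3 SP_L libraries. That share is without TMM scaling. As summed CPM, which have it, they averaged 2620 with an SD of 67.1 in SP_H and 2817 with an SD of 226 in SP_L. With adjusted p-values from edgeR's quasi-likelihood fit, 0 of the 47 genes were called, where 0.0679% of all tested genes were. DESeq2 also called 0, of 46 genes with an adjusted p, where it called 2.24% of all genes with one. At an unadjusted edgeR p under 0.05 there were 4 of the 47 genes, or 8.51%, against 12.7% of all tested genes. SP_H and SP_L stood apart without overlap in 9 of the 47, or 19.1%, and in 19.1% of all tested genes. All 9 were higher in SP_L, as were 1989 of the 3940 such genes among all tested. They were psma6a, psma6l, psmb1, psmb4, psmd1, psmd2, psmd7, psme1 and psme4a. This separation was seen in CPM with TMM scaling. In the deposited FPKM, which lack that scaling, psme4a alone of the 9 stayed apart. Outside the 9, psma3, psmc1b, psmd9, psmd10 and psmg2 stood apart in FPKM, all of them lower in SP_L. Some gaps were narrow, with 6.48 FPKM as the lowest SP_H value of psma3 and 6.36 FPKM as its highest SP_L value. The share of all tested genes that stood apart in FPKM was not counted. With log2(FPKM + 1) most tested genes were lower in SP_L, as 28.5% of them had positive values.

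For 40 of the 47 genes the 95% interval of the fold change lay wholly within a fold of 1.5 in either direction. The same held for 87.8% of 6280 other genes expressed at the members' middle levels and for 56.6% of all tested genes. Of those 6280 genes, 15.5% had an unadjusted edgeR p under 0.05 and 21.3% stood apart without overlap in CPM. Those 40 genes included all 17 of the cap, all 4 activators and all 13 constitutive core genes other than psma3. The intervals of the cap genes ran from a log2 value of -0.20 at the lowest to 0.58 at the highest. The 7 genes with wider intervals were psma3, psmb8a, psmb9a, psmb12, psmb13a, psmg3 and psmg4, most of them expressed at low levels.

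**Figure D1:**
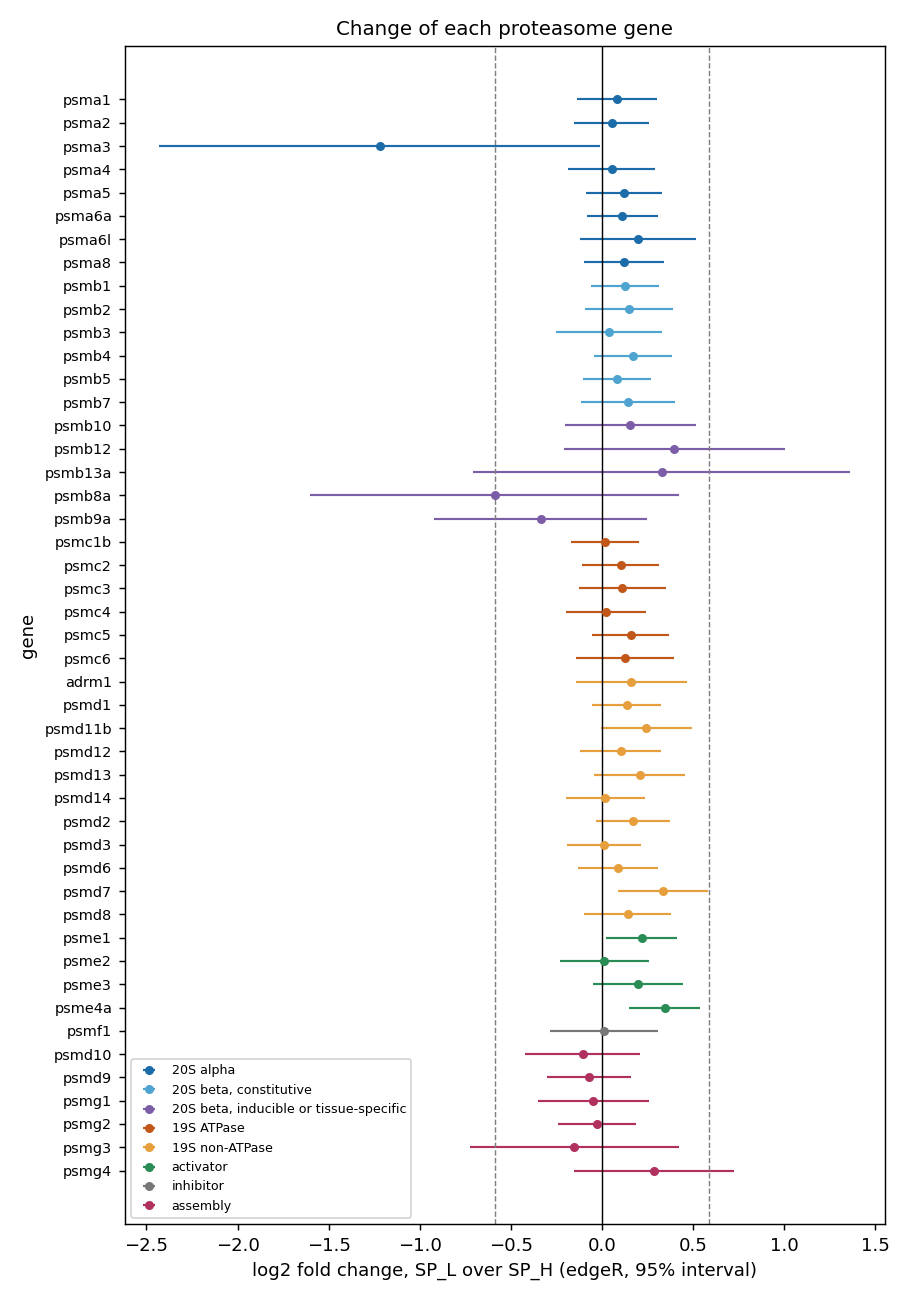
Log2 fold change of SP_L over SP_H for each of the 47 tested genes, with points for the edgeR estimate and bars for its 95% interval, coloured by role. Dashed lines mark a fold of 1.5 in either direction. With the TMM scaling used here the cap genes all sit slightly right of 0 with intervals between -0.20 and 0.58, while psma3 and the inducible beta genes have the wide bars.

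Within this narrow range the values leaned to one side. Of the 47 genes, 39 had a positive log2 fold change (83.0%, against 50.5% of all tested genes), with a median of 0.11 against 0.00 for all tested genes. The lean depended on SP_L replicate 1. That library had the highest CPM of the 6 in 35 of the 47 genes, or 74.5%, against 19.9% of all genes passing the same count rule. It was the highest in 16 of 17 cap genes and in 14 of 19 core genes. SP_H replicate 1 was the lowest library in 17 of the 47. Without SP_L replicate 1 the median was 0.02, and 28 of the 47 genes (59.6%) were positive against 50.0% of all tested genes.

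The sign of these small values also follows the scaling. With library size alone the median of all tested genes moved to -0.13 and that of the 47 genes to -0.02. Of the 47, 19 were then positive and 28 negative (40.4% positive, against 28.5% of all tested genes). Relative to all tested genes the median of the 47 was 0.11 under either scaling, and 39 of the 47 lay above the median of all tested genes under each. The deposited FPKM share the second scaling, so the means of a gene can be ordered differently in FPKM and in CPM.

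**Figure D2:**
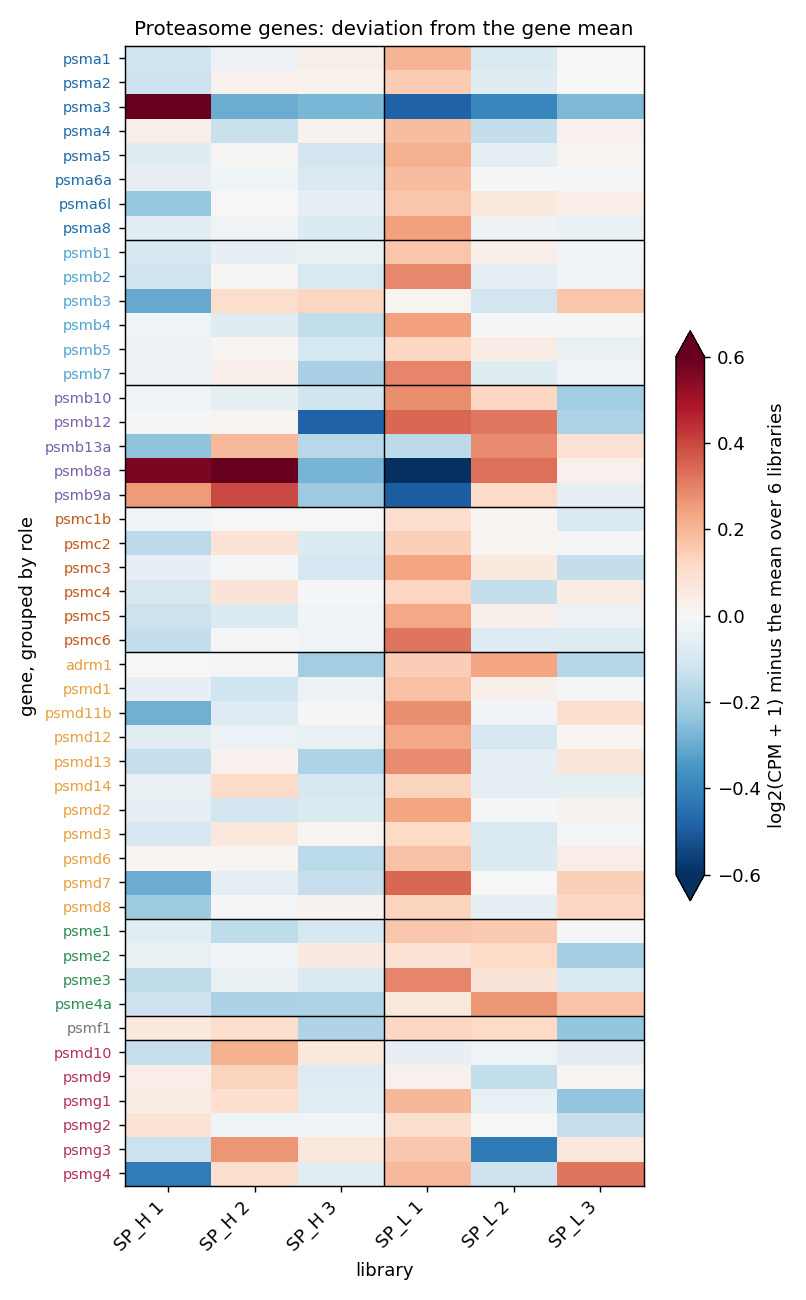
Deviation of log2(CPM + 1) from the gene's own mean over the 6 libraries, for each of the 47 genes (rows, grouped by role and coloured as such) in each library (columns). SP_L replicate 1 is the column with the most high values, the highest library in 35 of 47 genes, and psma3 in SP_H replicate 1 and psmb8a in SP_L replicate 1 stand out from their rows.

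Markers of some cell types also moved with the groups. The summed level of 16 skeletal muscle fibre markers was 76056 to 85255 CPM in SP_H and 97751 to 113231 CPM in SP_L, with 14 of 16 positive and the highest sum in SP_L replicate 1. Most of this sum came from acta1b, mylpfb, mylpfa and ckma. The log2 fold changes of the 16 markers ran from -0.53 to 1.18, with a median of 0.31. The summed level of 18 markers of proliferating cells was 365 to 412 CPM in SP_H and 300 to 325 CPM in SP_L, with 18 of 18 negative. The sums of 15 leukocyte markers overlapped, at 255 to 298 CPM in SP_H and 250.5 to 289.6 CPM in SP_L, with 7 of 15 positive. Those of 10 hepatocyte markers overlapped too, at 3219 to 5819 CPM in SP_H and 5166 to 5780 CPM in SP_L, with 10 of 10 positive. SP_H replicate 3 had the lowest sum and was the lowest library in 9 of these 10 markers. All markers found in the table passed the count filter. The part of cell composition in the proteasome values was not tested, and in whole-body RNA fewer cells of a type and less RNA per cell cannot be told apart.

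The alpha rings of the core gate the entry of substrates. Of their 8 genes 7 had positive values, and these 7 ranged from 0.05 to 0.20. The gene psma8 encodes an alpha subunit that in mammals is confined to the testis, where it replaces psma7. The symbol does not show that the bass gene has that role, and no gene carried the symbol psma7. Here it had the highest alpha level, 80.3 FPKM over the 6 libraries, next to psma2 at 79.2 and psma5 at 78.7 FPKM. The level of psma8 was 96.0, 99.1 and 95.1 CPM in the SP_H libraries and 119, 98.5 and 97.9 CPM in the SP_L libraries. Only SP_L replicate 1 stood above the rest, and the log2 fold change was 0.12 ± 0.10 (adjusted p = 0.654 by edgeR). The paralog psma6l was expressed at 6.34 FPKM against 36.6 FPKM for psma6a. It had 7.57, 9.05 and 8.70 CPM in SP_H and 10.3, 9.46 and 9.32 CPM in SP_L, without overlap. Its log2 fold change was 0.20 ± 0.14 (adjusted p = 0.612 by edgeR), and reads shared between these paralogs could be split either way by the counting.

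One alpha gene, psma3, was set apart by a single library. It had 475 counts in SP_H replicate 1 and 76 to 107 counts in each of the other 5 libraries. In CPM these were 28.5, 6.29 and 6.42 in SP_H and 5.41, 5.83 and 6.43 in SP_L, so that the first SP_H library lay 4.54-fold above the median of the other 5, and the remaining SP_H libraries lay within or beside the SP_L range. The log2 fold change was -1.22 ± 0.54 with all libraries (adjusted p = 0.388 by edgeR) and -0.11 ± 0.19 without SP_H replicate 1 (adjusted p = 0.874). In SP_L the mean of psma3 was 5.65 FPKM, near the 6.49 FPKM of psma6l and below the 36.3 FPKM of psma6a and the 77.05 FPKM of psma2. In RefSeq 3 small nucleolar RNA genes lie within the span of psma3, and they are not analysed here.

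The beta rings hold the proteolytic sites. The 6 constitutive beta genes ranged from 79.8 FPKM for psmb7, just below psma8, to 123 FPKM for psmb3, and all 6 had positive log2 fold changes between 0.04 and 0.17. The non-catalytic subunit gene psmb4 had 98.9, 95.8 and 91.1 CPM in SP_H and 120, 100.3 and 101 CPM in SP_L. The groups did not overlap, although SP_L replicates 2 and 3 lay close to the highest SP_H library, and the log2 fold change was 0.17 ± 0.09 (adjusted p = 0.507 by edgeR). The gene psmb1, another non-catalytic subunit, had 136, 140.3 and 141 CPM in SP_H and 163, 148 and 143 CPM in SP_L, which is 0.12 ± 0.08 on the log2 scale (adjusted p = 0.587 by edgeR). The third, psmb3, varied more within the groups than between them. Its libraries stood at 88.2, 117 and 119 CPM in SP_H and 110.4, 100.5 and 122 CPM in SP_L, which is 0.04 ± 0.13 on the log2 scale (adjusted p = 0.941 by edgeR).

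The inducible beta subunits replace constitutive ones in immune cells and under interferon, which alters the peptides cut for presentation. They were rare in these larvae, from 1.42 FPKM for psmb13a to 9.19 FPKM for psmb10. Their summed FPKM was 3.15% of that of all beta genes in SP_H, with an SD of 0.468, and 3.07% in SP_L, with an SD of 0.519 (n = 3 each). They also varied more between replicates, with a median biological coefficient of variation of 22.2% against 10.1% for all 47 genes. Their median log2 CPM was 2.44 against 5.78 for all 47, and the part of level in this spread was not tested. In the RefSeq table psmb9a, psmb12 and psmb13a follow each other directly, behind the peptide transporter gene tap2a.

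The 95% intervals of all 3 of these neighbours spanned 0. The gene psmb12, a beta gene known from fishes, had 3.90, 3.996 and 2.53 CPM in SP_H and 5.27, 5.14 and 3.35 CPM in SP_L. The groups overlapped through the third SP_L library, and the log2 fold change was 0.40 ± 0.27 (adjusted p = 0.592 by edgeR). The gene psmb9a had 6.31, 7.05 and 4.26 CPM in SP_H and 3.35, 5.64 and 4.92 CPM in SP_L, which is -0.34 ± 0.26 on the log2 scale (adjusted p = 0.641 by edgeR). The gene psmb8a, the inducible counterpart of the catalytic subunit psmb5, had 7.99, 8.29 and 4.01 CPM in SP_H and 1.57, 6.64 and 5.19 CPM in SP_L. Its log2 fold change was -0.59 ± 0.45 (adjusted p = 0.635 by edgeR) with a 95% interval from -1.60 to 0.42, and -0.20 ± 0.32 without SP_L replicate 1 (adjusted p = 0.875).

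Both psmb8a and psmb9a were lowest in SP_L replicate 1, the library in which most of the other proteasome genes were highest, and highest in SP_H replicate 2. The third inducible catalytic gene, psmb10, did not follow them. It had 10.1, 9.93 and 9.44 CPM in SP_H and 12.7, 11.3 and 8.80 CPM in SP_L, which is 0.15 ± 0.16 on the log2 scale (adjusted p = 0.741 by edgeR). The rarest, psmb13a, had 8 to 18 counts per library and a log2 fold change of 0.33 ± 0.46 (adjusted p = 0.818 by edgeR). Its biological coefficient of variation was 29.0%. With this and so few counts its 95% interval ran from -0.71 to 1.36, and differences within that range remain compatible with these values.

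The base of the cap holds the ring of ATPases. Their 6 genes lay between 35.3 FPKM for psmc2 and 63.3 FPKM for psmc1b. All 6 log2 fold changes were positive, between 0.02 and 0.16, and in none of the 6 were the groups apart in CPM. In the deposited FPKM, where most tested genes were lower in SP_L, all SP_L values of psmc1b lay below all its SP_H values. The gene psmc5 had 76.6, 79.0 and 83.0 CPM in SP_H and 98.8, 85.7 and 81.8 CPM in SP_L, which is 0.16 ± 0.09 on the log2 scale (adjusted p = 0.533 by edgeR). The gene psmc1b had 97.6, 98.8 and 98.6 CPM in SP_H and 106, 99.6 and 92.9 CPM in SP_L. Its log2 fold change of 0.02 ± 0.08 (adjusted p = 0.959 by edgeR) had a 95% interval from -0.17 to 0.20. The gene psmc2 had 48.0, 56.8 and 50.7 CPM in SP_H and 59.3, 54.3 and 53.4 CPM in SP_L, which is 0.10 ± 0.09 on the log2 scale (adjusted p = 0.706 by edgeR).

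The 11 other cap genes encode scaffold, lid and ubiquitin-binding subunits, and ran from 11.1 FPKM for the ubiquitin receptor gene adrm1 to 54.7 FPKM for psmd3. All 11 had positive values, with a median of 0.14. The lid gene psmd7, whose product pairs with the deubiquitinating subunit psmd14, had the lowest p of the cap. Its libraries stood at 60.7, 72.0 and 67.8 CPM in SP_H and 95.2, 74.8 and 82.5 CPM in SP_L. The groups did not overlap, and the log2 fold change was 0.33 ± 0.11, which did not pass the test (edgeR adjusted p = 0.242, DESeq2 adjusted p = 0.209). The gene of its partner, psmd14, had a log2 fold change of 0.02 ± 0.10.

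The gene psmd11b encodes the lid subunit that clamps the cap onto the core. It had 44.7, 51.9 and 55.001 CPM in SP_H and 66.7, 54.1 and 58.7 CPM in SP_L, overlapping in 1 library of each group, and a log2 fold change of 0.24 ± 0.11 (adjusted p = 0.402 by edgeR). The lid gene psmd3 had 96.9, 108 and 105 CPM in SP_H and 112, 97.0 and 103 CPM in SP_L. Its groups lay over one another, with a log2 fold change of 0.01 ± 0.09 (adjusted p = 0.980 by edgeR). The large scaffold genes psmd1 and psmd2 had log2 fold changes of 0.14 ± 0.08 and 0.17 ± 0.09, both without overlap between groups in CPM. Summed over the genes, the ratio of cap to core FPKM within a library averaged 0.663 ± 0.0117 over the 3 SP_H libraries and 0.674 ± 0.00663 over the 3 SP_L libraries (SD), and the ranges overlapped.

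**Figure D3:**
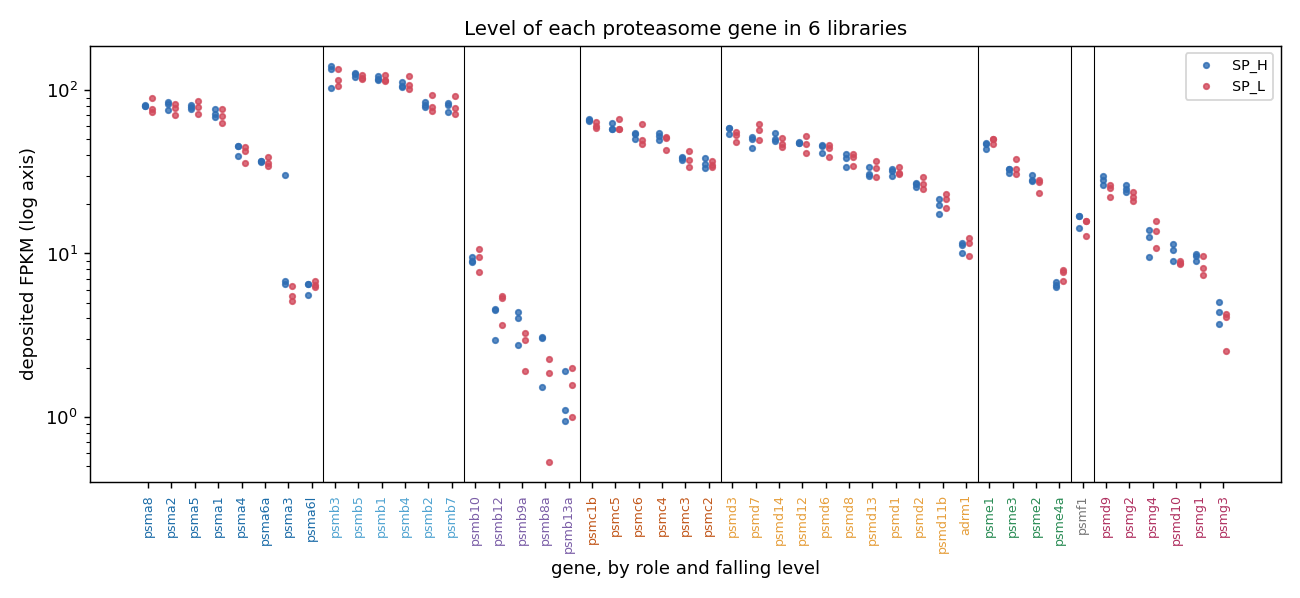
Deposited FPKM (log axis) of each of the 47 genes in the 6 libraries, with 1 point per library, ordered by role and falling level and with gene names coloured by role. The constitutive beta genes lie between 79.8 and 123 FPKM on average and the inducible ones between 1.42 and 9.19 FPKM, and the points of both groups lie over each other in most genes.

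The activators had the largest positive median of the classes, 0.21 over 4 genes. The gene psme4a encodes a form of PA200, the single-chain nuclear activator known in mammals for the breakdown of acetylated histones. It had the lowest p of all 47 genes, at rank 437 by edgeR p among the 20627 tested genes. All its SP_L libraries lay above all its SP_H libraries. Its libraries stood at 45.3, 43.3 and 43.3 CPM in SP_H and 51.7, 59.7 and 55.9 CPM in SP_L. The log2 fold change was 0.34 ± 0.09 with a 95% interval from 0.15 to 0.54, and it did not pass the test (edgeR adjusted p = 0.146, DESeq2 adjusted p = 0.114). Unlike most of the complex, psme4a was lowest among the SP_L libraries in replicate 1. Its log2 fold change ranged from 0.29 to 0.39 when each library was left out in turn, with edgeR adjusted p-values from 0.225 to 0.364. With library size alone it was positive as well, at 0.21.

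The other activators are those of the PA28 kind. The genes psme1 and psme2 encode the partners of the cytoplasmic ring, which interferon induces, and psme3 encodes a nuclear ring. The gene psme1 had 46.0, 43.4 and 45.2 CPM in SP_H and 54.3, 54.0 and 48.1 CPM in SP_L, without overlap. Its log2 fold change was 0.22 ± 0.09 (adjusted p = 0.329 by edgeR). Its partner psme2 had 30.0, 30.6 and 32.2 CPM in SP_H and 33.0, 33.8 and 26.8 CPM in SP_L. These groups overlapped, and the log2 fold change was 0.01 ± 0.11 (adjusted p = 0.977 by edgeR). The gene psme3 had 45.2, 48.8 and 47.3 CPM in SP_H and 61.9, 53.1 and 47.1 CPM in SP_L, which is 0.20 ± 0.11 on the log2 scale (adjusted p = 0.499 by edgeR). The inhibitor gene psmf1 had 24.6, 25.4 and 20.7 CPM in SP_H and 25.7, 25.7 and 19.9 CPM in SP_L, which is 0.01 ± 0.13 on the log2 scale (adjusted p = 0.983 by edgeR).

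**Figure D4:**
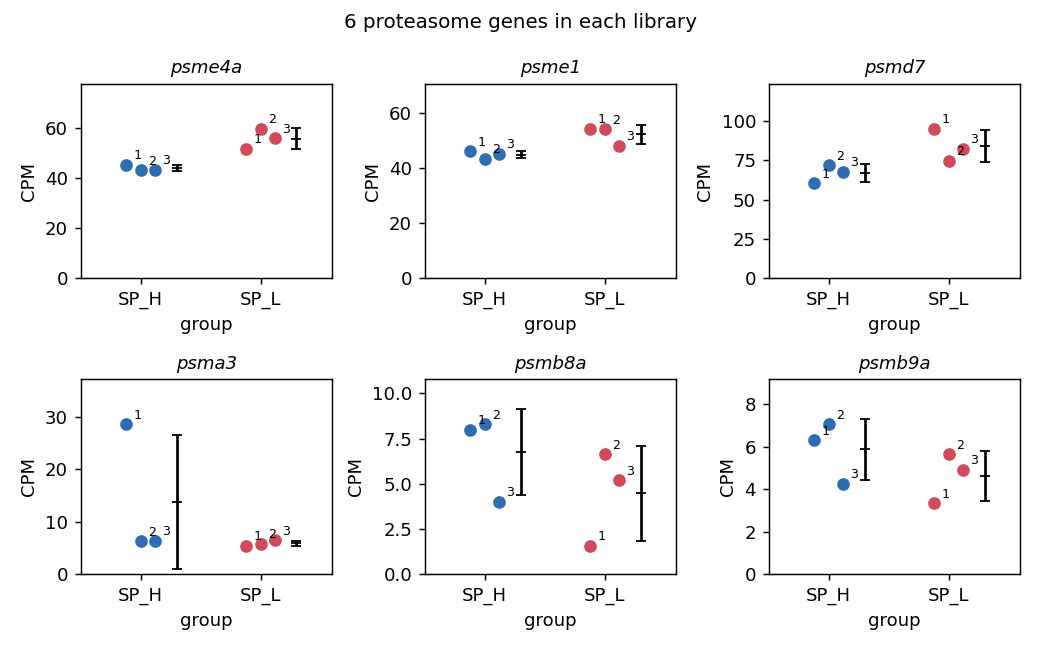
CPM of psme4a, psme1, psmd7, psma3, psmb8a and psmb9a in each library, with replicate numbers beside the points and bars for the mean and SD of each group (n = 3 each). In these TMM-scaled CPM the groups are apart in psme4a, psme1 and psmd7, but in deposited FPKM those of psme1 and psmd7 overlap. The gene psma3 is high in SP_H replicate 1 alone at 28.5 CPM, and psmb8a and psmb9a are lowest in SP_L replicate 1.

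With TMM scaling the assembly factors were the 1 class with a negative median, while with library size alone those of the core and cap were below 0 as well. Negative values were found in 5 of the 6 genes, and the median was -0.06. The largest of these were -0.15 ± 0.25 for psmg3 and -0.11 ± 0.14 for psmd10, which encodes gankyrin, a chaperone of the cap. The gene psmd10 had 9.67, 12.6 and 11.2 CPM in SP_H and 10.3, 10.5 and 10.2 CPM in SP_L, and the groups overlapped in CPM (adjusted p = 0.802 by edgeR). Another cap chaperone gene, psmd9, had 25.8, 27.6 and 23.7 CPM in SP_H and 25.6, 22.6 and 25.4 CPM in SP_L, which is -0.07 ± 0.10 on the log2 scale (adjusted p = 0.828 by edgeR). In the deposited FPKM all SP_L values of psmd10, psmd9 and psmg2 lay below all SP_H values of the same gene. Those of psmg1, psmg3 and psmg4 overlapped in FPKM. The gaps were narrow, as in psmg2 with 23.7 FPKM in SP_L replicate 1 and 23.8 FPKM in SP_H replicate 2. With log2(FPKM + 1) the median was -0.18 for the class and -0.09 for all tested genes. The core chaperone gene psmg4 was the exception in sign, at 6.37, 9.52 and 8.40 CPM in SP_H and 10.3, 8.02 and 11.3 CPM in SP_L. Its groups overlapped as well, and its log2 fold change was 0.28 ± 0.19 (adjusted p = 0.599 by edgeR).

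A ratio taken within a library does not depend on how libraries are scaled to each other. The ratio of summed assembly to summed core FPKM was 0.0816, 0.0868 and 0.0816 in SP_H and 0.0758, 0.0772 and 0.0801 in SP_L. All 3 SP_L values lay below all 3 SP_H values, by as little as 0.0816 against 0.0801. With 3 libraries a group an exact permutation test cannot give a p below 0.1, and since the genes were chosen as a list the ratio was not tested. The ratio of activator to core FPKM averaged 0.106 ± 0.00316 over the 3 SP_H libraries and 0.112 ± 0.00987 over the 3 SP_L libraries (SD), with overlap.

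**Figure D5:**
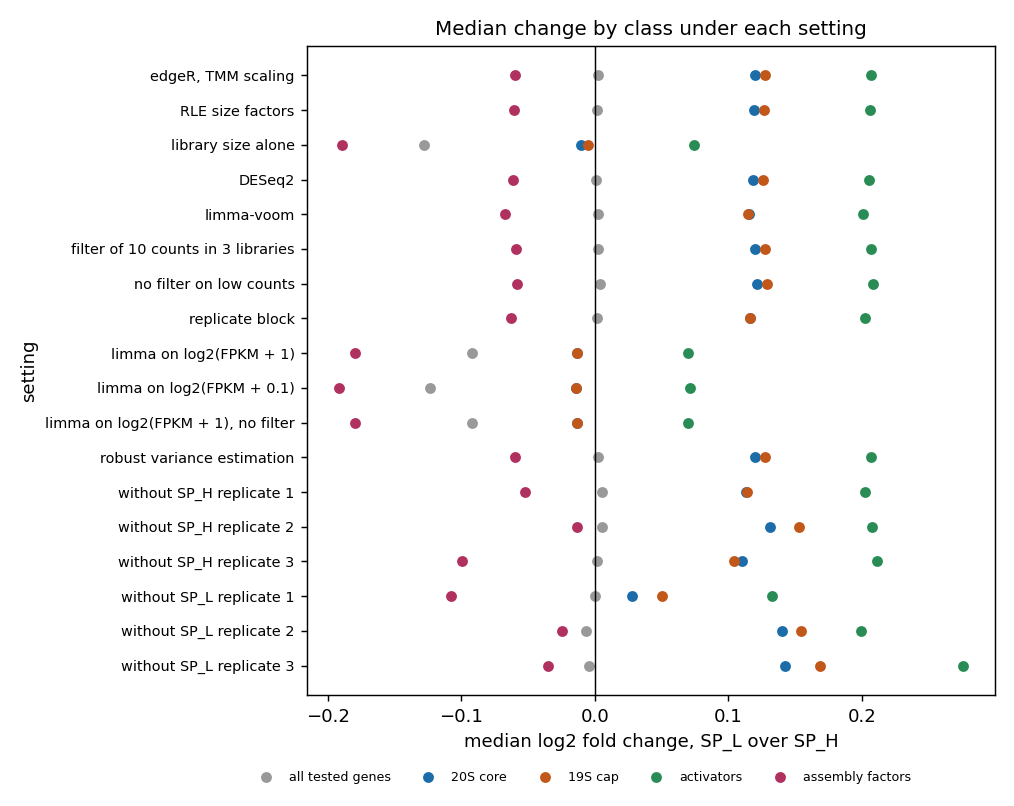
Median log2 fold change of SP_L over SP_H for all tested genes and for the core, cap, activator and assembly genes under each setting of the analysis. With TMM scaling the medians are 0.12, 0.13, 0.21 and -0.06 for the 4 classes. With library size alone every median, that of all genes included, shifts down together, and without SP_L replicate 1 the core median is 0.03.

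The partners of the proteasome, a list of 47 symbols covering ubiquitin genes, shuttle factors, deubiquitinating enzymes and regulators, also held sem1, a small cap subunit whose symbol the choice by name did not match (log2 value 0.01 ± 0.14). Of 32 found and tested, edgeR and DESeq2 each called 0 and 3 had an unadjusted edgeR p under 0.05, or 9.38% against 12.7% of all tested genes. There were 25 positive values (78.1%, against 50.5% of all tested genes), with a median of 0.10, and SP_L replicate 1 was the highest library in 16 of the 32. The lowest p belonged to rad23aa, a shuttle factor that carries ubiquitinated proteins to the cap. It had 103, 104 and 113 CPM in SP_H and 144, 114 and 123 CPM in SP_L, which is 0.25 ± 0.10 on the log2 scale (adjusted p = 0.357 by edgeR). The gene nfe2l1b, whose mammalian counterpart drives transcription of proteasome genes when the complex is inhibited, had a log2 fold change of 0.08 ± 0.09 (adjusted p = 0.783 by edgeR). Its paralog nfe2l1a had the largest value of the list, 0.36 ± 0.24 (adjusted p = 0.579 by edgeR), at a log2 CPM of 2.01 against 6.45 for nfe2l1b.

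The list of antigen processing and interferon genes, which act with the inducible subunits, also had 0 calls by either tool among 21 tested, with 2 at an unadjusted edgeR p under 0.05, or 9.52% against 12.7% of all tested genes. Its median was 0.12, and 14 values were positive (66.7%, against 50.5%). The lowest p was that of socs1a, a feedback inhibitor of cytokine signalling. It had 0.601, 0.705 and 0.802 CPM in SP_H and 1.42, 1.504 and 1.247 CPM in SP_L, without overlap, and a log2 fold change of 0.98 ± 0.34 (adjusted p = 0.269 by edgeR). Its level was low, at a log2 CPM of 0.22 against a median of 4.67 for the list. The transporter gene tap2a, beside psmb9a in the genome, had a log2 fold change of 0.19 ± 0.25.

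Genes of muscle protein breakdown, many of them ubiquitin ligases that supply the proteasome with substrates, had values of both signs. Of 23 tested, 14 were positive and 9 negative, with a median of 0.08. The 1 gene called by edgeR and the 6 called by DESeq2 were higher in SP_L, where edgeR called 0.0679% and DESeq2 2.24% of all genes. At an unadjusted edgeR p under 0.05 there were 8 higher and 2 lower, together 43.5% of the list against 12.7% of all tested genes. The list was drawn up when the rise of fbxo32 in these data was already known. Its calls and this share are therefore a description and not a test. The 2 lower genes were smox, at a log2 value of -0.32 ± 0.10, and foxo3a, which encodes a transcription factor of muscle atrophy, at -0.32 ± 0.11, and neither passed the adjusted test. The paralog foxo3b had a log2 value of -0.09 ± 0.09, at a log2 CPM of 6.11 against 4.10 for foxo3a. The gene called by both was fbxo32, the muscle ligase gene also known as atrogin. It had 20.1, 7.58 and 9.63 CPM in SP_H and 66.7, 132 and 70.6 CPM in SP_L, and rose by a log2 value of 2.85 ± 0.37 (edgeR adjusted p = 0.0446, DESeq2 adjusted p = 2.9e-05). The muscle ligase gene trim63b, which marks sarcomere proteins for the proteasome, had 50.9, 52.6 and 41.1 CPM in SP_H and 65.7, 68.7 and 70.4 CPM in SP_L. The groups did not overlap, and the log2 value of 0.50 ± 0.11 passed DESeq2 (adjusted p = 0.00909) but not edgeR (adjusted p = 0.109). The gene klhl40b, also on this list, had 29.1, 34.6 and 32.5 CPM in SP_H and 77.7, 47.7 and 54.4 CPM in SP_L. Its log2 value was 0.90 ± 0.17 (edgeR adjusted p = 0.0837, DESeq2 adjusted p = 0.000105). The other 3 called by DESeq2 alone were asb2a.1, fbxo30a and kbtbd12, at log2 values of 0.86 ± 0.13, 0.63 ± 0.11 and 0.61 ± 0.14 with edgeR adjusted p-values of 0.0709, 0.0760 and 0.128. The summed skeletal muscle markers were higher in SP_L as well, and their part in these values was not tested. Whether these genes and the proteasome genes differ in response was not tested either.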

How the data were processed

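Whole-body RNA of 6 libraries was sequenced after stranded mRNA library preparation, per the labels' protocols. Tools listed in the submitters' processing notes are HTSeq, Cufflinks, DESeq, StringTie, HISAT2, Bowtie2, Trimmomatic and SAMtools. No role or version is listed for any of them. A mouse build, mm10, is also listed, although 27161 gene names matched largemouth bass RefSeq (ASM1485139v1). For that reason no coordinates are given, and RefSeq served only for names and gene neighbours. The authors deposited raw counts per gene and FPKM. The deposited FPKM matched the counts divided by library total and a constant length per gene in all 21149 genes examined.

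Counts were tested in R 4.3.3 with edgeR 4.0.16 (filterByExpr with a minimum count of 10 and a total of 15, TMM scaling, quasi-likelihood F test, Benjamini-Hochberg adjustment over all tested genes at 0.05, no replicate block). DESeq2 1.42.0 and limma 3.58.1 served as alternatives. The steps were tested on simulated data. Between replicates the variance was 11.2 to 14.7 times that of counting, so no library repeated another. The p-values measure the spread between pools. The strand setting of the counting is not given in the sources used here, so counts are uncertain where genes overlap in RefSeq: psmb12 with psmb13a, psmc2 with slc26a5, psmg4 with LOC119900272, and psmd1 and psma3 with genes inside them.

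The members, lists and tests were chosen with earlier results of these data known. Named genes were, in each role, the 2 with the lowest edgeR p and the 1 with the highest FPKM, all in roles of up to 4, and in each pathway list (not the marker lists) those called by edgeR or DESeq2 or, with none, the lowest p. Other genes named, among them psmb9a, psmb13a, psmd1, psmd2, psmd14, psmg3, nfe2l1a, nfe2l1b, sem1, smox, foxo3a, foxo3b and tap2a, were chosen after their values were seen.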

Additional observations from a re-analysis of the deposited data

How the results depend on the processing

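Under every alternative run, 0 of the 47 genes were called, and the smallest adjusted p among them lay between 0.114 and 0.364. The count of all genes called, 14, was 450 with DESeq2, 57 with no filter, 78 with robust variance estimation, 5 with library size alone, 2 with the replicate number as a block and 0 in the 3 limma fits of FPKM, where 3639, 3614 and 3881 genes had an unadjusted p under 0.05. It ranged from 0 to 22 with single libraries left out. Deviations of libraries sharing a number correlated at -0.09, -0.11 and -0.10, none was closest to its own number, and the block called 0 proteasome genes.

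The median log2 values of core, cap, activator and assembly genes were -0.010, -0.0048, 0.075 and -0.19 with library size alone, -0.013, -0.013, 0.070 and -0.18 with log2(FPKM + 1), filtered or not, and -0.014, -0.014, 0.072 and -0.19 with log2(FPKM + 0.1). The median of all tested genes was itself -0.13 with library size alone. With single libraries left out they ranged from 0.028 to 0.14, from 0.050 to 0.17, from 0.13 to 0.28 and from -0.11 to -0.014. Of the 47 genes, 39 were positive with TMM scaling (83.0%, against 50.5% of all tested genes). With library size alone 19 were positive (40.4%, against 28.5%). With log2(FPKM + 1), filtered or not, and with log2(FPKM + 0.1) there were 19 as well, against 28.5% of all tested genes. Of the genes named by the rule, psma8, psmb1, psmb3, psmc2, psmc1b, psmd3, psme2 and psmf1 turned negative. With library size alone they were at -0.0092, -0.0072, -0.091, -0.027, -0.12, -0.12, -0.12 and -0.12. With log2(FPKM + 1), filtered or not, they were at -0.013, -0.0079, -0.084, -0.024, -0.11, -0.12, -0.12 and -0.11. With log2(FPKM + 0.1) they were at -0.014, -0.0080, -0.085, -0.025, -0.12, -0.12, -0.12 and -0.12. Leaving out single libraries turned the sign of several genes near 0, with values from -0.091 to 0.11 for psmb3, from -0.055 to 0.057 for psmd3, from -0.049 to 0.11 for psme2, from -0.073 to 0.12 for psmf1 and from -0.037 to 0.060 for psmc1b, and of genes named outside the rule from -0.055 to 0.084 for psmd14, from -0.30 to 0.046 for psmg3 and from -0.019 to 0.10 for psma2. The cause was not tested.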
